A study of Mus musculus with 3 samples.

Results

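Scavenger receptors were followed in mouse bone marrow-derived dendritic cells through 6 genes, Marco, Msr1, Cd36, Scarb1, Olr1 and Stab1, chosen by name among the 18193 genes that had a probe set with a single gene symbol. A probe set is the group of short array oligonucleotides whose signals are summarized into 1 intensity for a transcript. All probe sets whose only symbol was 1 of the 6 were read, which gave 14 of 34945 such probe sets. The cells came from bone marrow of female mice aged 6 weeks, were cultured with GM-CSF at 20 ng/mL, and were collected as nonadherent cells on day 7. They were then kept for 24 h with PBS, with LPS (lipopolysaccharide, which Toll-like receptor 4 senses) at a dose of 1 µg/mL, or with an agent labelled PTX at 100 ng/mL, whose abbreviation the labels do not spell out. The strain label was C57BL/6 for the PBS and LPS samples and C57BL/7 for the PTX sample. Whether the 3 cultures shared a mouse is not given in the sources used here. Each of the 3 groups held 1 array, so no spread within a group existed, no test was possible, and every value below is a description of these 3 arrays.

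Scavenger receptors are cell surface proteins that bind modified lipoproteins, bacterial surfaces, apoptotic cells and other polyanionic or lipid ligands, and carry them into the cell or hold them at its surface. They are grouped into classes by protein architecture rather than by common descent. Marco and Msr1 are class A receptors with a collagen-like stalk, and Cd36 and Scarb1 are class B receptors that cross the membrane at both ends and handle fatty acids and lipoprotein lipids. Olr1 (also called LOX-1) is the C-type lectin-like class E receptor for oxidized low-density lipoprotein, and Stab1 is a large class H receptor with epidermal growth factor-like and fasciclin domains. Macrophages and dendritic cells grown with GM-CSF are known sources of several of them.

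The sequences upstream of Marco, Cd36 and Olr1 are shown because the brightest probe sets of these 3 genes were the ones more than 2-fold from PBS, Marco and Cd36 in opposite directions after LPS and Olr1 after PTX. Each run is the 250 bases before the annotated gene start, 5′ to 3′ on the minus strand, from RefSeq on GRCm38.p6, at chr1:120505025-120505274 for Marco, chr5:17835897-17836146 for Cd36 and chr6:129507166-129507415 for Olr1. Capitals mark matches, on either strand, to 5 short motifs, namely TGANTCA (AP-1), GAGGAA (PU.1), GGNNTTTCC (part of a kappaB site), GAAANNGAA (part of an interferon response element) and AGGTCA (a nuclear receptor half-site).
Marco: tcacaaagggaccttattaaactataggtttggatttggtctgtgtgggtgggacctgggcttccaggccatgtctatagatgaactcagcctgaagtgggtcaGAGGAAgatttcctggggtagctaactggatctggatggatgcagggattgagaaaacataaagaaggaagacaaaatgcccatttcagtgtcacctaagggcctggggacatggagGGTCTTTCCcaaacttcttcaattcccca
Cd36: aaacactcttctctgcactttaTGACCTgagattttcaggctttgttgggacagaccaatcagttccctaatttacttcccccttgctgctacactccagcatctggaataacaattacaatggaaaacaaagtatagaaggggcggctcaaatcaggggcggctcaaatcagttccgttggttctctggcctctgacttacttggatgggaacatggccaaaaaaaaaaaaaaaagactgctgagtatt
Olr1: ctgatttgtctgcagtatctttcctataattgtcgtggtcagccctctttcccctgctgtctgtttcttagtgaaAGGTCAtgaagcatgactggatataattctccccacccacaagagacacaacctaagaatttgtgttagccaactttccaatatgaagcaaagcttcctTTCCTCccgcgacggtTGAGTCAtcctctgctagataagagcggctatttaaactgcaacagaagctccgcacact

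The Marco sequence held GAGGAA 146 to 141 bases before the start and GGTCTTTCC, a match to the kappaB part, 29 to 21 bases before it. In Cd36 the match was AGGTCA on the other strand, 228 to 223 bases before the start. Olr1 held AGGTCA at 175 to 170 bases, GAGGAA on the other strand at 76 to 71 bases and TGAGTCA, a match to the AP-1 motif, at 60 to 54 bases before the start. None of these matches overlapped another. Among 32851 upstream sequences of the same length, AP-1 was matched in 6.7%, PU.1 in 23.3%, the kappaB part in 4.9%, the interferon response part in 7.1% and the half-site in 14.0%. A match describes letters in the window and not binding. The table held an upstream sequence for 4 of the 6 genes, Stab1 being the fourth. The Stab1 sequence, not shown, also held GAGGAA, 30 to 25 bases before the start.

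Differences are given as the difference of log2(intensity + 16) between 2 arrays, so that 1 stands for about 2-fold, and small intensities are shrunk by the added 16. A gene or probe set counted as measured when it reached an intensity of 78.9, the median of all values, on at least 1 array. All 14 probe sets of the 6 genes were measured. For a count of genes, a gene was represented by whichever of its probe sets was brightest on average on the log2 scale, and the other probe sets of the 6 genes are given beside it. In the lists of related genes below, a gene counted within 2-fold can have further probe sets past it, and only some of these are named. Passing 2-fold upward or downward means a log2 difference of at least 1 in that direction. The arrays differed in median intensity, at 85.7 (PBS), 65.3 (LPS) and 86.9 (PTX). The 3′ control probe set for 18S ribosomal RNA over its 5′ counterpart gave a ratio of 0.26, 1.95 and 0.20. Beta-actin control probe sets, by contrast, gave 1.33, 1.39 and 1.40, and those of Gapdh gave 1.02, 0.96 and 1.12, so neither set the LPS array apart. The part of the lower median and of the 18S ratio of the LPS array in the differences that involve LPS was not tested. The PBS, LPS and PTX arrays each enter more than 1 comparison, so the comparisons share arrays. In bulk RNA, fewer cells that carry a transcript and less of it per cell cannot be told apart.

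After LPS, Marco was far higher than after PBS, Cd36 was lower, and the other 4 genes were within 2-fold. After PTX the pattern was different: Olr1 was lower than after PBS and the other 5 genes were within 2-fold. Of the 6 genes 1 passed 2-fold upward in LPS against PBS and 1 downward, where 6.50% and 13.0% of 12299 measured genes did. For PTX against PBS the counts were 0 upward and 1 downward, beside 3.04% and 2.37% of all measured genes. PTX against LPS had 2 upward, Cd36 and Scarb1, and 2 downward, Marco and Olr1, where 13.7% and 6.24% of genes passed. The median over the 6 genes was -0.28, 0.11 and 0.20 in the 3 comparisons, beside -0.08, 0.01 and 0.09 over all measured genes.

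Counted by probe set, 2 of 14 passed 2-fold upward and 4 downward in LPS against PBS, beside 6.23% and 16.3% of 21805 measured probe sets. The PTX array against the PBS array gave 0 upward and 1 downward, beside 2.76% and 2.19%. Against the LPS array, PTX gave 6 upward and 3 downward, beside 17.3% and 6.22%. The probe sets of 1 gene read the same RNA on the same array and are not replicates. The background depended on the scaling. Among all genes that passed 2-fold between LPS and PBS, the share that was higher with LPS was 33.3% as deposited, 45.6% after quantile normalization, 54.7% after scaling to a common 75th percentile and 58.1% after median centring. The share that was higher with PTX than with LPS was 68.7%, 53.2%, 43.8% and 40.5% in the same order.

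**Figure D1:**
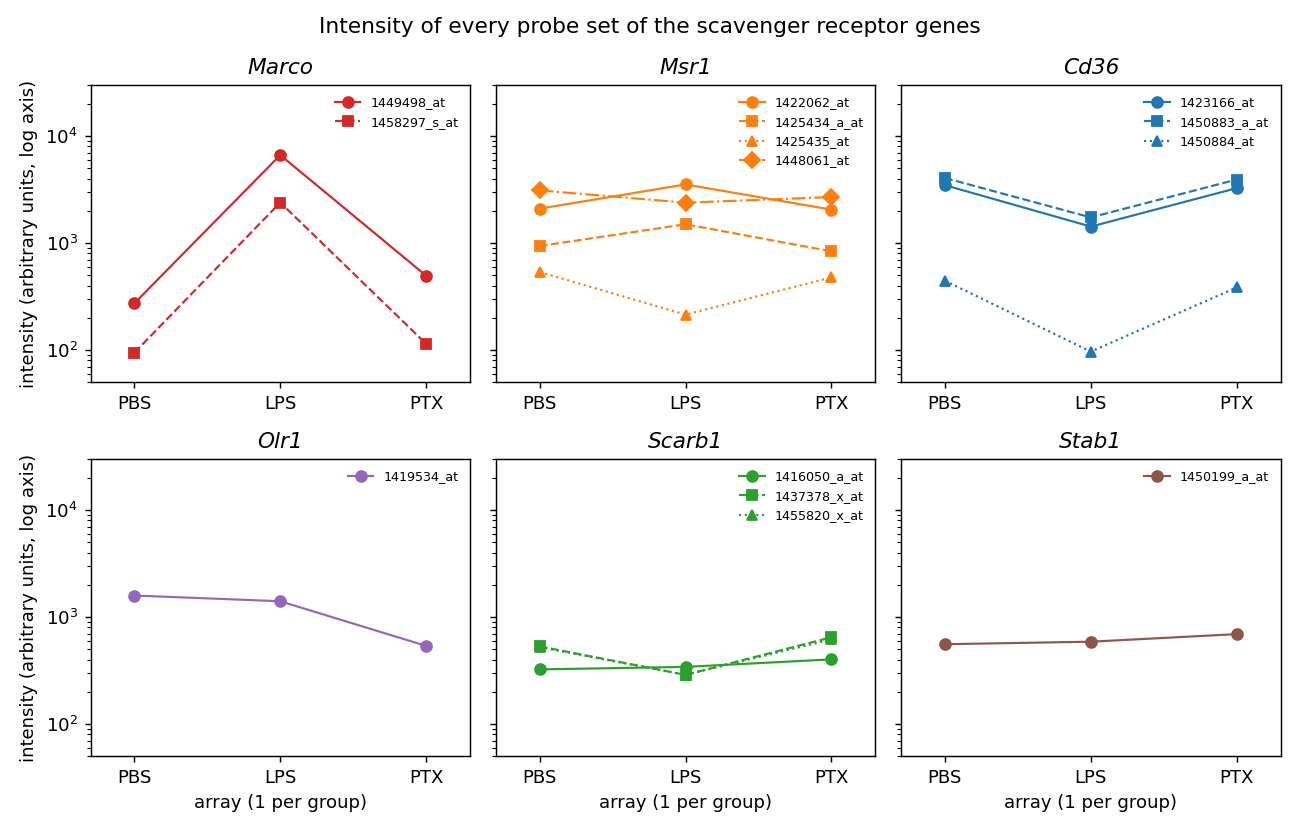
Intensity (arbitrary units, log axis) of each of the 14 probe sets on the PBS, LPS and PTX arrays, in 1 panel per gene, with lines joining the 3 readings of a probe set. Both Marco probe sets peak on the LPS array, all 3 Cd36 probe sets are lowest there, the 4 Msr1 probe sets diverge there, and Olr1 is lowest on the PTX array, while the lines of 1437378_x_at and 1455820_x_at (Scarb1) overlap.

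Marco, a class A receptor that binds bacteria and particles and is known to be inducible on macrophages and dendritic cells by microbial products, read 273 (PBS), 6632 (LPS) and 494 (PTX) with probe set 1449498_at. The LPS reading was 24.3 times the PBS reading and 13.4 times the PTX reading. Its other probe set, 1458297_s_at, read 94.3, 2388 and 114, so that LPS was 25.3 times PBS and 20.9 times PTX. The LPS array was thus high and the PBS array low in both probe sets, with PTX between them.

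In LPS against PBS the log2 difference of Marco was 4.52, rank 6 from the highest among 12299 measured genes, and 4.45 in the other probe set. Among the 3167 genes with exactly 2 measured probe sets the median disagreement between them was 0.49, and that of Marco was 0.08. Between PTX and PBS the same probe sets gave 0.82 and 0.24, both under 2-fold, a disagreement of 0.58 beside a median of 0.17, and the dimmer probe set was near the measured level on both arrays. In PTX against LPS they gave -3.71 and -4.21, and the former ranked 13 from the lowest. Within its own array the brighter probe set stood at percentile 75.2 of all noncontrol probe sets after PBS, at 99.1 after LPS and at 83.7 after PTX, a measure that does not depend on how an array is scaled. The suffix _s_at marks probe sets that can match transcripts of several genes, and 1449498_at carries no such mark.

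Msr1, the class A macrophage scavenger receptor for acetylated lipoproteins, is spliced at its 3′ end into a type I form with a cysteine-rich domain and a type II form without it. Its 4 probe sets did not agree on a direction after LPS. Probe set 1448061_at, the brightest on average, read 3102 (PBS), 2381 (LPS) and 2686 (PTX), and 1425435_at read 536, 214 and 477, so both were lowest on the LPS array. By contrast 1422062_at read 2093, 3527 and 2050, and 1425434_a_at read 936, 1496 and 836, so both were highest there.

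The differences of the 4 Msr1 probe sets in LPS against PBS were -0.38, -1.26, 0.75 and 0.67 in that order, so that 1 of 4 passed 2-fold downward and 0 upward. The annotation gives 1425434_a_at and 1425435_at the same source sequence, and these differed by 0.67 and -1.26. The 4 spanned 2.01, while the median span of the 613 genes with 4 measured probe sets was 1.26, and 141 other genes of that kind were at least as wide. The ratio of the signal of 1422062_at to that of 1425435_at was 3.9 with PBS, 16.5 with LPS and 4.3 with PTX, so these signals changed unequally after LPS whatever factor an array is scaled by. Between PTX and PBS the 4 probe sets lay together between -0.21 and -0.03, and their span of 0.18 was below the median of 0.39. Which form each probe set reads is not given in the sources used here, and no direction is assigned to Msr1 after LPS. After median centring the difference of 1422062_at was 1.07 and that of 1425435_at -0.94, so that 2-fold was passed by the former and no longer by the latter while both signs stayed.

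Cd36, the class B receptor that takes up long-chain fatty acids and oxidized lipoproteins, was lower after LPS than after PBS or PTX in all 3 of its probe sets. The brightest, 1450883_a_at, read 4052 (PBS), 1733 (LPS) and 3917 (PTX). Probe set 1423166_at read 3472, 1423 and 3255, and 1450884_at read 444, 96.6 and 384. The annotation gives all 3 the same source sequence. The LPS array was low in each of them, and the PBS and PTX arrays were close together, with the PTX reading 0.967, 0.937 and 0.867 times the PBS reading.

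In LPS against PBS the differences of Cd36 were -1.22, -1.28 and -2.03, all past 2-fold, and in PTX against PBS they were -0.05, -0.09 and -0.20. Of the measured genes, 9.9% had a lower difference than Cd36 in LPS against PBS. Median centring gave -0.90, -0.95 and -1.71, so that 1 of the 3 probe sets then passed 2-fold, and scaling to a common 75th percentile gave -0.91, -0.97 and -1.75. Relative to the median of all measured genes the brightest probe set lay between -1.56 and -1.14 over the 4 scalings. The percentile of 1450884_at within its array was 82.6 after PBS, 60.2 after LPS and 80.3 after PTX, and that of the brightest probe set 98.7, 95.0 and 98.5.

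**Figure D2:**
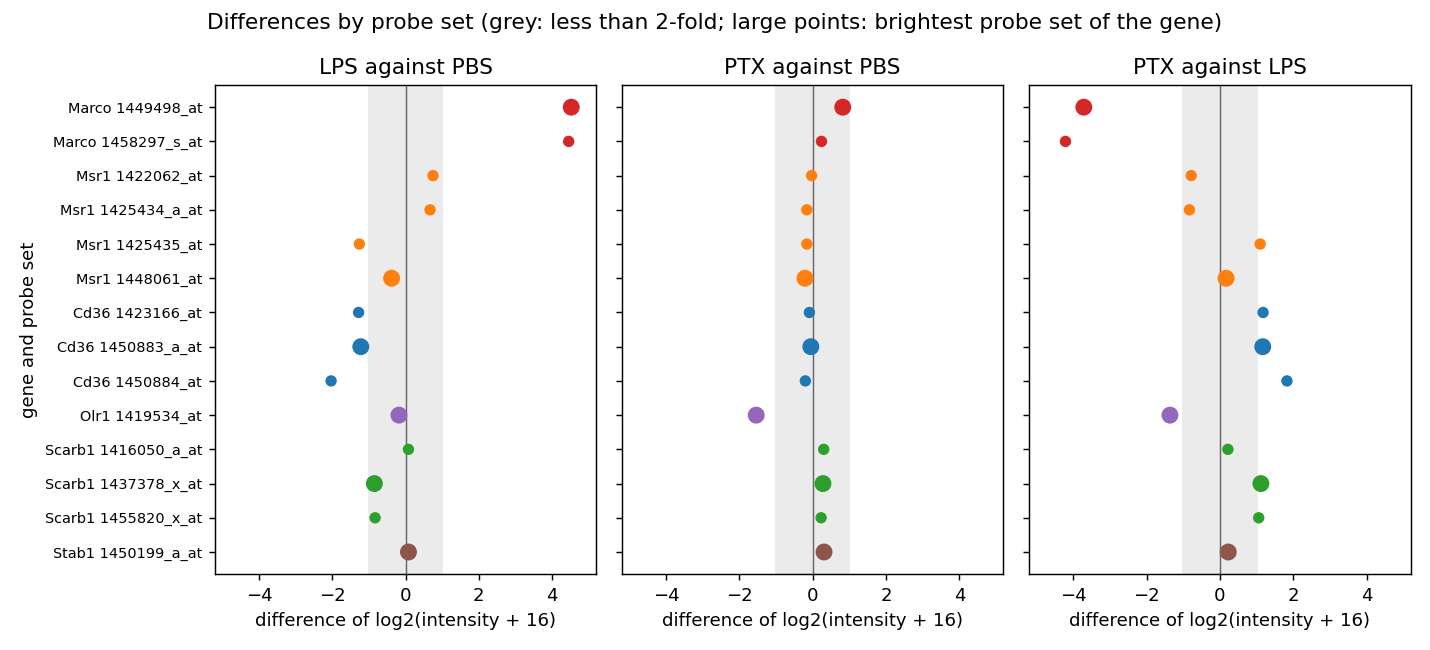
Difference of log2(intensity + 16) for each of the 14 probe sets in the 3 comparisons, with large points for the brightest probe set of each gene and a grey band for differences under 2-fold. Marco lies near 4.5 and all 3 Cd36 probe sets lie below -1 in LPS against PBS, the Msr1 probe sets fall on both sides of 0 there, and in PTX against PBS only Olr1, at -1.54, lies outside the band.

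Scarb1, the class B receptor for high-density lipoprotein through which cholesteryl esters are taken up selectively, had 3 probe sets that split into 2 kinds. The brightest, 1437378_x_at, read 532 (PBS), 288 (LPS) and 647 (PTX), and 1455820_x_at read 523, 288 and 618. Both were lowest on the LPS array, with differences of -0.85 and -0.83 in LPS against PBS. The suffix _x_at marks probe sets with oligonucleotides that can match other transcripts. The third, 1416050_a_at, read 324, 342 and 402 and differed by 0.08.

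Between PTX and PBS the 3 Scarb1 probe sets agreed, at 0.28, 0.23 and 0.30, and their span of 0.07 was narrower than that of all but 4.7% of the 1353 genes with 3 measured probe sets. All 3 readings were highest on the PTX array as deposited. For 1416050_a_at PTX minus LPS turned negative with median centring (-0.12), quantile normalization (-0.03) and 75th percentile scaling (-0.09), and its percentile within the array was 81.2 after LPS and 80.9 after PTX. In PTX against LPS the x-type probe sets gave 1.12 and 1.06 and the other gave 0.22, so the difference past 2-fold for Scarb1 rested on probe sets that can match other transcripts. It also fell short of 2-fold after median centring (0.78), quantile normalization (0.88), scaling to the 75th percentile (0.81) and with the mean over the 3 probe sets (0.80).

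Olr1, the receptor for oxidized low-density lipoprotein that also binds bacteria and apoptotic cells, had 1 probe set and, alone among the 6 genes, passed 2-fold between PTX and PBS. It read 1589 (PBS), 1404 (LPS) and 537 (PTX). The PTX array was low, and the PBS and LPS arrays were close. The PBS reading was 2.96 times and the LPS reading 2.62 times the PTX reading.

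The difference of Olr1 was -1.54 in PTX against PBS, rank 121 from the lowest of 12299 measured genes, and lay between -1.72 and -1.46 over 9 alternative ways of processing. Those that changed the filter or the choice of probe set could not alter this difference, because Olr1 had 1 probe set, not marked _x_at or _s_at. In PTX against LPS it was -1.36, with a range of -1.70 to -1.29. In LPS against PBS it was -0.18 and its sign turned after median centring and after scaling to the 75th percentile, up to 0.15. Its percentile within the array was 95.2 after PBS, 93.7 after LPS and 84.8 after PTX. No second probe set of Olr1 was present to set beside this reading.

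Stab1, a receptor of sinusoidal endothelium and alternatively activated macrophages that clears acetylated lipoproteins and the matrix protein SPARC, read 557 (PBS), 588 (LPS) and 692 (PTX) with its single probe set. The 3 readings lay close together. Its differences were 0.08 in LPS against PBS, 0.31 in PTX against PBS and 0.23 in PTX against LPS, all within 2-fold. The last of these turned negative after median centring and after scaling to the 75th percentile, down to -0.11.

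**Figure D3:**
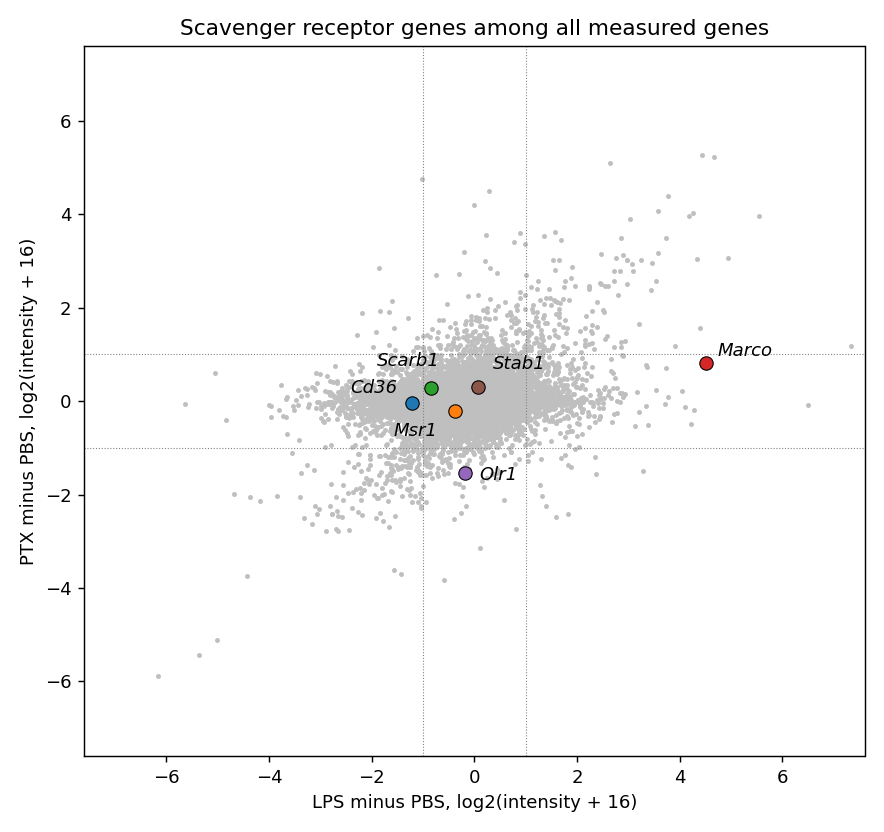
LPS minus PBS (horizontal axis) against PTX minus PBS (vertical axis), both as differences of log2(intensity + 16), for 12299 measured genes (grey points) with the 6 scavenger receptor genes in colour, and dotted lines at 2-fold. Both axes share the PBS array. Marco lies far to the right at 4.52 and 0.82, Cd36 lies left of the line at -1.22 and -0.05, Olr1 lies below the line at -0.18 and -1.54, and the other 3 lie inside the central square.

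For likeness of pattern, the distance between genes was taken over the pair of log2 differences against PBS, from 3 arrays, with the brightest probe set of each gene. In LPS against PBS the probe sets of Msr1 ran from -1.26 to 0.75, those of Scarb1 from -0.85 to 0.08 and those of Cd36 from -2.03 to -1.22. Those of Marco gave 0.82 and 0.24 in PTX against PBS. The genes nearest to Msr1, Scarb1, Cd36 and Marco therefore depend on that choice of probe set. Marco had no gene within a distance of 0.25, and its nearest were Lcn2 (0.709), which read 1217 (PBS), 18575 (LPS) and 2779 (PTX), Ctla2b (0.748), Lef1 (0.777), Orm1 (0.797) and Kctd14 (1.04). Olr1 had 3 genes within 0.25, Pdlim7 (0.111), Ets1 (0.120) and Sqle (0.204), followed by Fdps (0.270) and Fam162a (0.273). Pdlim7 read 392, 363 and 133. The named genes nearest to Cd36 were Arid2 (0.034) and Steap4 (0.038), beside 3 predicted genes among the first 5, and 355 genes lay within 0.25. For Scarb1, Bcas3 (0.006), Morn1 (0.024), Pik3r2 (0.025), Mtmr1 (0.028) and Bahcc1 (0.034) were nearest among 330 genes within 0.25. Msr1 lay within 0.25 of 1331 genes (nearest Tssc4, Masp1, Cd164l2, Rcan3 and Wbp11, up to 0.016) and Stab1 within 0.25 of 1184 (nearest Nfrkb, Slc45a2, Hsf2bp, Nudt19 and Tsks, up to 0.010), so likeness to these 2 genes singles out little.

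Other scavenger receptors, listed by name, split after LPS. Of 18 genes 12 were measured, and between LPS and PBS 3 passed 2-fold upward, 5 passed it downward and 4 did not pass it, where 6.50% and 13.0% of all measured genes passed upward and downward. The list's median was -0.11 beside -0.08 for all measured genes. Higher were Cxcl16 (1.34), a chemokine that as a membrane protein binds oxidized lipoprotein, Cd68 (1.17), a lysosomal protein of macrophages that read 2972 on the PBS array and 6694 on the LPS array, and Scarf1 (1.10). Lower were the mannose receptor gene Mrc1 (-2.05), which read 441 (PBS), 94.0 (LPS) and 472 (PTX), Cd5l (-1.65), the collectin-type receptor gene Colec12 (-1.62), Scarf2 (-1.20, which its other measured probe set did not share at 2-fold) and Lrp1 (-1.08, likewise not shared). After median centring 3 were higher and 3 lower, and the median turned to 0.21.

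After PTX 2 of these 12 passed 2-fold upward from PBS, Scara3 (1.37) and Scarf1 (1.15), 0 downward, and 10 did not pass it, where 3.04% and 2.37% of all measured genes passed. The list's median was 0.35 beside 0.01. Scara3 read 32.1 on the PBS array and 108 on the PTX array, and with a pseudocount of 64 neither passed 2-fold. Relative to LPS 6 passed upward, led by Mrc1 (2.15) and Colec12 (2.05), and 0 downward, beside 13.7% and 6.24% of all measured genes, and with a pseudocount of 64 the upward count was 3. Cd163, Scara5, Stab2, Megf10, Dmbt1 and Cd207 were below the measured level on all 3 arrays.

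Genes of lipid uptake, storage and efflux handle the cargo of class B receptors. Of 16 measured genes 12 were within 2-fold in LPS against PBS (median 0.33), where 80.5% of all measured genes were, with Cav1 (1.51), the caveolar coat gene, and Npc2 (1.08, shared at 2-fold by 1 of 3 further measured probe sets and lost with quantile normalization), a lysosomal cholesterol carrier, higher, and Cpt1a (-1.22), the gate of mitochondrial fatty acid oxidation, and Lrp1, which is also in the list above, lower. With median centring 4 were higher and 0 lower. From PBS to PTX 3 passed 2-fold upward, Apoe (2.11), the apolipoprotein gene that read 1294 (PBS), 1972 (LPS) and 5647 (PTX), Fabp4 (1.59), a fatty acid-binding protein gene, and Abca1 (1.10), the cholesterol exporter, and 0 downward (median 0.29), where 94.6% of all measured genes did not pass it. The 3 further measured probe sets of Fabp4 passed it too, and 1 of 2 of Abca1. Npc2, counted within 2-fold at 0.71, had 2 of 3 further measured probe sets past 2-fold upward. Against LPS, where 80.1% of all measured genes were within 2-fold, 4 were higher, Apoe (1.51), Cpt1a (1.49), Lrp1 (1.34) and Lipa (1.15), a lysosomal lipase gene, and Cav1 was lower (-1.84), with a median of 0.26 that turned to -0.16 after median centring. Fabp4, counted within 2-fold there at 0.88, had 3 of 3 further measured probe sets past 2-fold upward, and Abcg1, at 0.18, had 1 of 1.

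Among nuclear receptors and transcription factors known to act on scavenger receptor genes, 1 of 13 measured genes was lower in LPS against PBS, Klf4 (-2.47), and 0 were higher (median -0.38), beside the same 13.0% and 6.50% of all measured genes. Nr1h3, the oxysterol receptor LXR alpha, was at 0.96 and passed 2-fold under each of the 3 other scalings. Pparg, the fatty acid receptor that drives Cd36 in many cells, read 180 (PBS), 105 (LPS) and 144 (PTX), differences of -0.70 and -0.29 against PBS. After PTX Maf was higher than after PBS (1.42, and past 2-fold in each of 4 further measured probe sets) and Klf4 was lower (-1.31), with a median of 0.13, beside 3.04% and 2.37% of all measured genes. Relative to LPS, PTX had 3 genes past 2-fold upward, Maf (1.57), Klf4 (1.16) and Rxrb (1.04), and 0 downward (median 0.41), beside 13.7% and 6.24%. Klf4 and Rxrb fell short of 2-fold under each of the 3 other scalings, and Nr1h3 then passed it downward, so that median centring gave 1 upward and 1 downward with a median of 0.07.

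Genes of apoptotic cell recognition, a function that Cd36, Msr1 and Olr1 share, were within 2-fold in 13 of 15 measured cases in LPS against PBS, beside 80.5% of all measured genes. Cd47 (1.13) was higher, which 1 of 4 further measured probe sets shared at 2-fold and quantile normalization did not keep, and the integrin gene Itgb5 (-1.33) was lower, which 1 of 3 further probe sets shared. Sirpa, counted within 2-fold at 0.30, had 2 of 2 further measured probe sets past 2-fold upward. From PBS to PTX 14 of 15 were within 2-fold, beside 94.6% of all measured genes, and Mertk, the receptor kinase that binds bridged phosphatidylserine and is also a macrophage marker, was higher (1.78), reading 524 (PBS), 609 (LPS) and 1841 (PTX). The medians were 0.08 in both. Relative to LPS, PTX had 3 genes past 2-fold upward, Itgb5 (2.16), Mertk (1.57) and Axl (1.33), and 0 downward, beside 13.7% and 6.24%. After median centring Axl did not pass, Cd47 passed downward, and the median of 0.17 turned to -0.23. Membrane and kinase partners of Cd36 and Msr1 were within 2-fold in 11 of 13 cases after LPS, beside 80.5% of all measured genes, with the Src family kinase gene Fyn (2.20, not shared at 2-fold by its other measured probe set) and the signalling chain gene Fcer1g (1.57) higher, and a median of 0.35. With each of the 3 other scalings Tlr6 and Vav1 passed as well, which made 4. Among genes counted within 2-fold, 2 of 3 further measured probe sets of Tlr4 and 1 of 2 of Mapk9 passed it downward, and 1 of 1 of Src upward. From PBS to PTX 0 of 13 passed 2-fold in either direction (median 0.15), where 94.6% of all measured genes did not, and the tetraspanin gene Cd81, at -0.99, passed it downward with each of those scalings. Relative to LPS, Fyn (-1.59) and Fcer1g (-1.19) were lower with PTX and 0 were higher (median -0.23), beside 6.24% and 13.7%, and the downward count was 4 with median centring and 1 with quantile normalization. Further measured probe sets of Tlr4 (2 of 3), Mapk9 (1 of 2) and Syk (1 of 3) passed 2-fold upward in that comparison.

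**Figure D4:**
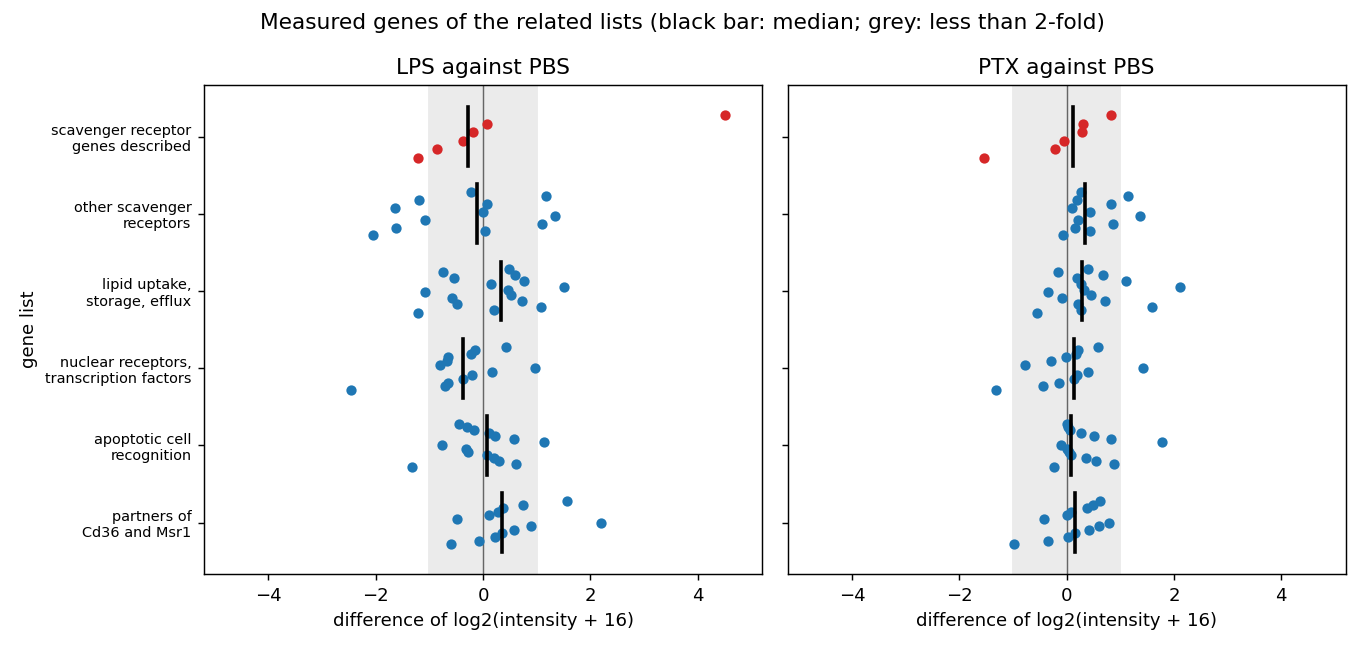
Differences of log2(intensity + 16) of the measured genes of the 6 receptor genes (red) and of 5 related lists (blue) in LPS against PBS and PTX against PBS, with 1 point per gene, black bars at list medians and a grey band for differences under 2-fold. After LPS the other scavenger receptors lie on both sides of the band, and after PTX most genes of all lists lie inside it, Apoe at 2.11 being farthest to the right.

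Markers of dendritic cells were present on all arrays. Of 10 markers 8 reached the measured level after PBS and 10 after LPS and after PTX, with summed intensities of 17590, 28726 and 20723. Itgax, which encodes CD11c, read 2383, 1691 and 1294. By contrast, Flt3 (62.1, 181 and 253), Ccr7 (2163, 5689 and 3622) and Cd83 (647, 1904 and 1507) were lowest after PBS. Of the 10 markers 3 passed 2-fold upward and 0 downward in LPS against PBS, beside 6.50% and 13.0% of all measured genes. In PTX against PBS 2 passed upward and 0 downward, beside 3.04% and 2.37%. Markers of macrophages and monocytes, cells that also carry these receptors, were bright as well, with 11, 10 and 11 of 11 genes at the measured level and sums of 46000 (PBS), 61489 (LPS) and 61559 (PTX). Among them Ccr2, a monocyte chemokine receptor gene, read 2909, 71.7 and 4448, lowest with LPS as Cd36 was, and Adgre1, which encodes F4/80, read 2898, 7695 and 4834. The part of shifts between such cells in the differences of Marco, Cd36 and Olr1 was not tested.

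Among endothelial and stromal markers, cells known for Stab1, Scarb1 and Cd36, 3, 2 and 4 of 9 reached the measured level and the sums were 1569, 708 and 2239, of which Kdr gave 1003, 340 and 1692, while Cdh5, Pecam1, Tek, Col1a1 and Pdgfrb were below the measured level on all arrays. The order of these sums, lowest after LPS and highest after PTX, was also that of 2 Scarb1 probe sets, and their part in it was not tested. Neutrophil markers summed to 10443, 11908 and 5441, lowest after PTX as Olr1 was. Most of each sum came from S100a8 (6074, 9306 and 4007) and S100a9 (3877, 1924 and 1083). From PBS to LPS S100a9 fell (-1.0), and Ltf (97.3, 38.6 and 78.6) was lowest after LPS. Camp (70.7, 259 and 37.7) and Ngp (252, 294 and 147) were lowest after PTX. Mpo and Elane were below the measured level on all arrays. The part of neutrophils in the Olr1 difference was not tested. For erythroid cells with platelets the sums were 8221, 6958 and 7101, of which Pf4 gave 5351, 6024 and 5523 and Ppbp 2597, 561 and 1301. Hba-a1 and Klf1 were below the measured level on all arrays. For lymphocytes the sums were 3639, 2940 and 5089, of which Il7r gave 3412, 2754 and 4869. Cd3d, Cd79a and Ncr1 were below the measured level on all arrays. For mast cells with eosinophils the sums were 414, 2067 and 266, of which Prg2 gave 117, 1274 and 31.4 and Cpa3 96.3, 550 and 74.2. Mcpt8, Tpsab1, Fcer1a, Ms4a2 and Epx were below the measured level on all arrays. For plasmacytoid dendritic cells the sums were 1423, 8957 and 5106, of which Bst2, an interferon-inducible gene, gave 783, 8735 and 4102. Tcf4 (452, 126 and 787) and Ccr9 (137, 36.5 and 164) were lowest after LPS instead. Siglech was below the measured level on all arrays.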

How the data were processed

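RNA of 3 samples was measured, 1 array per group. Per the labels' protocols, 3 µg of total RNA was made into biotin-labelled cRNA for Affymetrix arrays. The values deposited by the authors are 1 linear intensity per probe set and array. Neither the summarizing program nor the background correction, scaling or build is given in the sources used here.

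Python 3.11.15 with pandas 2.3.3 and numpy 2.4.6 was used. Of 45101 probe sets 64 controls were left out, and 34945 had 1 symbol in the platform annotation, 932 several and 9160 none. All 6 members matched the same symbol in the RefSeq gene table. Log2 values were taken after adding 16, with no rescaling. The measured level was the median of all noncontrol values, and 12299 genes passed. The calculation was checked on simulated data.

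With 1 array per group no test, SD or p-value is given, and the number of arrays limits precision. A gene was called at 2-fold or more. The members and lists were chosen with earlier results of these data known. Genes named are the members, the 5 nearest to each by distance, and members of related lists at least 2-fold apart, at most 4 in each direction for a comparison, or all where 5 or fewer passed. Genes named within 2-fold, and marker genes with values, were chosen after their values were seen. Alternatives covered the pseudocount, scaling, choice of probe set and filter.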

Additional observations from a re-analysis of the deposited data

How the results depend on the processing

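Each difference of the 6 genes was recomputed under 9 alternatives, and no difference of at least 2-fold changed sign. The alternatives for the filter could not alter a difference, and those for the choice of probe set could not alter Olr1 or Stab1, with 1 probe set each. Marco in LPS against PBS ranged from 4.31 to 4.85 and Olr1 in PTX against PBS from -1.72 to -1.46. Cd36 in LPS against PBS came to -0.90 with median centring and -0.91 with scaling to the 75th percentile, and in PTX against LPS to 0.83 and 0.85, below 2-fold. Scarb1 in PTX against LPS fell short of 2-fold with median centring (0.78), quantile normalization (0.88), scaling to the 75th percentile (0.81), the mean over all probe sets (0.80) and without probe sets ending in _x_at or _s_at (0.22). Leaving out those probe sets moved Scarb1 in LPS against PBS to 0.08. The number of genes at least 2-fold apart thus went from 2 to 1 in LPS against PBS, and from 4 to 2 in PTX against LPS, with median centring and with scaling to the 75th percentile. Over all genes, those higher in LPS against PBS numbered 799 as deposited, 1449 with median centring and 1367 with 75th percentile scaling, and those lower 1601, beside 1045 with median centring, 1019 with a pseudocount of 64 and 775 with a filter at the 75th percentile. In PTX against LPS those higher numbered 1681, beside 1070, 1101 and 883 under these last 3, and those lower 767, beside 1575 with median centring and 1468 with 75th percentile scaling. The filter at the 75th percentile left 7589 genes rather than 12299, so its counts are out of fewer genes. The median of all measured genes in LPS against PBS was -0.08 as deposited, 0.11 with quantile normalization, 0.23 with 75th percentile scaling and 0.27 with median centring. No paired analysis was possible because each group held 1 array. No detection calls were among the values used, so dim readings such as 94.3 for Marco after PBS have no stated background.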

Other observations

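Probe sets of the same gene disagreed more in comparisons that involve the LPS array than in PTX against PBS. For genes with 2 measured probe sets the median disagreement was 0.49 in LPS against PBS, 0.53 in PTX against LPS and 0.17 in PTX against PBS. For genes with 3 it was 0.93, 0.99 and 0.29, and for genes with 4 it was 1.26, 1.34 and 0.39. The values in LPS against PBS, PTX against LPS and PTX against PBS were 2.01, 1.93 and 0.18 for Msr1, 0.81, 0.66 and 0.15 for Cd36 and 0.92, 0.90 and 0.07 for Scarb1. The disagreement of Marco was smallest in LPS against PBS (0.08, beside 0.50 and 0.58). The cause of these disagreements was not tested.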
